A study of Mus musculus with 6 samples.

Results

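The genes of mouse chromosome 12 were compared between OP9 stromal cells carrying a hairpin against Smo and OP9 cells carrying a scrambled hairpin. Members were exon probe sets that the platform annotation assigned to a single gene symbol and whose gene lay on chromosome 12 in the RefSeq gene table. They were also selected on level: the mean log2 value over the 6 arrays had to reach 6.56, the median over every probe set of the array. Of 1256831 probe sets on the array, 245574 with 1 symbol passed that level, and 8222 of these belonged to chromosome 12. A further 2506 single-symbol probe sets of chromosome 12 lay below the level and were not members. The members fell in 688 genes of the 720 that had any probe set on the chromosome, and 573 of those genes had 3 or more members and were tested as genes, with a median of 10 members each. Members were thus chosen by a level over all arrays that does not use the contrast, but the chromosome itself was proposed with the difference between the hairpins in view. Its overall shift is therefore given as a description without a test. At the threshold, a probe set of Dgkb (mean 6.56, difference -0.03) and one of Greb1 (mean 6.56, difference 0.12) lay just above, and one of 1700064M15Rik (mean 6.56, difference -0.0071) and one of Vcpkmt (mean 6.56, difference 0.60) lay just below.

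OP9 is a bone marrow stromal cell line of the mouse that supports blood cell growth in culture. Cells of both groups carried integrated pLKO.1-Puro lentiviral vectors, which express a hairpin and puromycin resistance. The control shRNA group expressed a scrambled sequence labelled NT, and the Smo shRNA group, labelled Smo-kd, expressed a hairpin against Smoothened, the membrane protein through which Hedgehog ligands signal. Total RNA was taken from each stable line in triplicate, which gave 3 arrays a group on the Affymetrix Mouse Exon 1.0 ST platform. No label states separate transductions for the triplicates, so each group is 1 stable population whose p-values measure only the spread between its RNA samples. An effect of the Smo hairpin and any other difference between the 2 lines cannot be told apart.

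Chromosome 12 is an autosome of mixed gene content. It carries genes for DNA replication, protein synthesis and mitochondrial metabolism that most cells express, the immunoglobulin heavy chain locus, a cluster of serpin protease inhibitor genes, and the imprinted Dlk1-Dio3 domain, in which some genes are read only from the maternal copy and others only from the paternal copy. Neighbouring genes on a chromosome often differ widely in function and each has its own promoter, although some neighbours are read in opposite directions from a shared stretch between their starts.

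Sequence upstream of 6 transcription units is printed because the data bear on them: 3 are stretches between the starts of gene pairs in which both genes were higher in Smo shRNA cells, Etv1 was the gene with the smallest adjusted p among those higher, and Fbln5 and Fos were among the 4 genes that fell most. The 3 pairs were picked after their values were seen, for a short gap that holds no transcribed base. The sequences are from RefSeq promoter entries of build GRCm38.p6 and read 5′ to 3′, on the plus strand for the pairs and on the strand of the gene for the others. Capitals mark exact motif matches, searched on both strands. The motifs were CCAAT for the CCAAT box, the letters GGGCGG for the GC box, then TATAAA as the TATA box, and for the cyclic AMP response element TGACGTCA.
1110002L01Rik/Asxl2, chr12:3426748-3426856: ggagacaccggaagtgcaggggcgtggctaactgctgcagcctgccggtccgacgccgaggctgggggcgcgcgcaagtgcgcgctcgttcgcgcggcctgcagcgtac
Alkbh1/Slirp, chr12:87443840-87443895: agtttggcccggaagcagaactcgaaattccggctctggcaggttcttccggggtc
Moap1/Tmem251, chr12:102743662-102743718: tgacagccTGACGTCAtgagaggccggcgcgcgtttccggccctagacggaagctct
Etv1, plus strand, chr12:38779932-38780081: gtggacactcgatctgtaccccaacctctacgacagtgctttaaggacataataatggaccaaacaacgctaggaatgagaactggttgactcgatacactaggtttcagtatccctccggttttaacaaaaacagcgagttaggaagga
Fbln5, minus strand, chr12:101819120-101819269: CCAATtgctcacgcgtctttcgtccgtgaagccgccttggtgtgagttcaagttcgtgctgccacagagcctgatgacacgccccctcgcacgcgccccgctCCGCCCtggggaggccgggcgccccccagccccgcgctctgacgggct
Fos, plus strand, chr12:85473740-85473889: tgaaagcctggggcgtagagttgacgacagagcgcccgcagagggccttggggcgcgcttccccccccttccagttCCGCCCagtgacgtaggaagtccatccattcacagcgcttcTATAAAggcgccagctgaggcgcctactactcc

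Of the 573 tested chromosome 12 genes, 494 had a promoter entry, and motifs were counted in the 150 bases before each start. The GC box was present in 50.8% of these 494 windows, in 47.8% of the 12660 windows of tested genes on other chromosomes and in 29.0% of all 27025 windows. CCAAT was present in 25.7%, 26.9% and 25.3%, and TATAAA in 4.86%, 4.83% and 8.08%, in the same order. The cyclic AMP response element was found in 3.04%, 2.11% and 1.44%. Among the 240 chromosome 12 genes that were called higher and had an entry, the shares were 54.2% for the GC box, 28.7% for CCAAT, 1.25% for TATAAA and 5% for the cyclic AMP response element. Among the 2691 such genes of other chromosomes the shares were 57.7%, 28.2%, 2.30% and 3.20%, so the GC box was more frequent and TATAAA less frequent among called-higher genes there too. Other motifs searched were TTTGGCGC and, of the same E2F type, TTTCCCGC, found in 2 and 3 of the 494 windows, and the Gli-type letters GACCACCCA, found in none of the 494 and in 0.111% of all windows. A match is a string of letters and not a measured binding site, and the absence of a match says only that these letters are not in the window.

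Gene values were log2 levels joined over probe sets, and differences are the Smo shRNA mean less the control shRNA mean on that scale. Smo, the gene that the hairpin targets, read 12.29, 12.22 and 12.24 in the control arrays and 11.32, 11.36 and 11.44 in the Smo shRNA arrays, a difference of -0.88 (SE 0.04, limma adjusted p = 1.22e-09) without overlap. The median levels of 10 stromal markers were between 11.79 and 12.39 in the 6 arrays, and those of macrophage, endothelial, B cell and epithelial marker lists were between 7.64 and 8.43. Single markers departed from these medians. The stromal marker Thy1 averaged 7.27 in the controls and 7.39 in Smo shRNA. Among macrophage markers, Cd14 averaged 9.66 and 9.54, Cd68 8.54 and 9.01, and Lyz2 9.13 and 6.64, in the same order. Of the 10 stromal markers, 8 were lower in Smo shRNA and 2 (Vcam1 and Thy1) did not pass, with Cxcl12 at -0.72 and Kitl at -0.69. The share called lower was 17.4% over all genes tested. It was 30.1% in the brightest of 5 level bins of genes outside chromosome 12. Lyz2 (-2.49) and Cd68 (0.47) passed among the 8 macrophage markers, whose median level was 7.86 to 8.13 in the 6 arrays, and no marker of the other 3 lists passed. The part of these markers in the results below was not tested. In such bulk RNA, fewer cells of a type and less RNA per cell cannot be told apart. Arrays correlated at 0.996 to 0.998 within a group and at 0.979 to 0.981 between groups over all genes, and array medians lay between 6.56 and 6.59.

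Genes of chromosome 12 were higher in the Smo shRNA arrays over most of the chromosome. The median difference over the 573 genes was 0.16, a 1.11-fold higher level, with quartiles at -0.0047 and 0.44, against a median of 0.01 over all 16923 genes tested. The difference was above 0 in 427 genes (74.5%), against 51.8% of the 16200 tested genes on the other chromosomes. By limma with Benjamini-Hochberg adjustment over all genes and a threshold of 0.05, 296 chromosome 12 genes (51.7%) passed, where 38.6% of all genes tested passed. Of these, 269 (46.9%) were higher, against 21.2% of all genes, and 27 (4.71%) were lower, against 17.4%. The remaining 277 did not pass. Among genes that passed, 91 (15.9%) were at least 1.5-fold higher, against 2.7% of all genes, and 6 (1.05%) were at least 1.5-fold lower, against 3.32%. The 3 Smo shRNA arrays lay above all 3 control arrays in 296 genes (51.7%; background 26.4%) and below them in 42 genes (7.33%; background 21.4%).

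The medians of the other 19 chromosomes ran from -0.01 to 0.04. Chromosome 11 held the highest of these, with 29.5% of its 1368 genes called higher and 12.1% lower, and the other 18 had medians up to 0.02 and called 16.4% to 23.2% of their genes higher. The whole distribution of chromosome 12 lay above that of the other chromosomes. The 5th percentile was -0.18 against -0.47 elsewhere, the 25th -0.0047 against -0.10, the 75th 0.44 against 0.12 and the 95th 0.80 against 0.43.

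**Figure D1:**
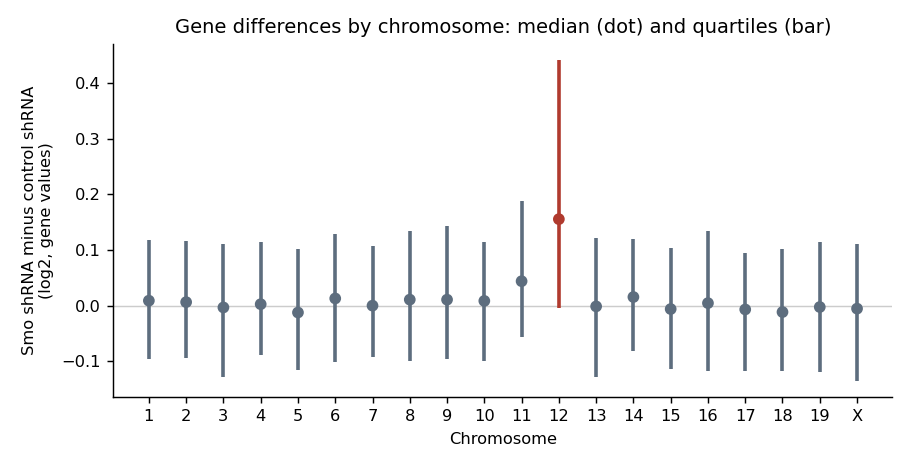
Median (dot) and quartiles (bar) of the gene difference between Smo shRNA and control shRNA, in log2 units, for each chromosome. Chromosome 12 has a median of 0.16 and an upper quartile of 0.44, and the medians of the other 19 chromosomes lie between -0.01 and 0.04.

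The same held for the members counted as single probe sets. Their median difference was 0.25 (quartiles 0.01 and 0.57), against 0.02 (quartiles -0.15 and 0.20) for the 235656 kept probe sets of other chromosomes. Fitted over all 245574 kept probe sets, limma called 4026 members (49%), where 30% of all kept probe sets passed. A total of 3696 members (45%) were higher, against 17.5% of all, and 330 (4.01%) were lower, against 12.4%. Among called members, 1972 (24%; background 5.15%) were at least 1.5-fold higher and 104 (1.26%; background 4.25%) at least 1.5-fold lower. The Smo shRNA arrays lay wholly above the controls in 4164 members (50.6%; background 23.6%) and wholly below in 496 (6.03%; background 17.4%). Probe sets of a gene share its transcripts and are not independent. The level filter let in few members through 1 group alone: 120 members (1.46%) had a control mean below the threshold and 47 (0.572%) a Smo shRNA mean below it.

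Single arrays separated by group. Relative to each gene's mean over the 3 control arrays, the median over chromosome 12 genes was 0.02, -0.04 and 0.02 in control replicates 1 to 3 and 0.16, 0.17 and 0.17 in Smo shRNA replicates 1 to 3. The lowest Smo shRNA array was 0.14 above the highest control array. With each array's median over the other chromosomes subtracted, the values were 0.00088, -0.01 and 0.0097 in the controls and 0.13, 0.16 and 0.19 in the Smo shRNA arrays, and the groups again did not overlap. Over the other chromosomes together the same medians were 0.02, -0.03 and 0.01 in the controls and 0.03, 0.01 and -0.02 in the Smo shRNA arrays, where the groups overlapped. Chromosome 11 read 0.023, -0.028 and 0.0075 in the controls and 0.077, 0.051 and 0.027 in the Smo shRNA arrays. These chromosome 11 values had no array median subtracted, and its groups did not overlap either, by a narrow margin. In each Smo shRNA array chromosome 11 lay above the highest of the other 18 chromosomes (0.040, 0.023 and -0.0020). In each control array it lay within their range.

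**Figure D2:**
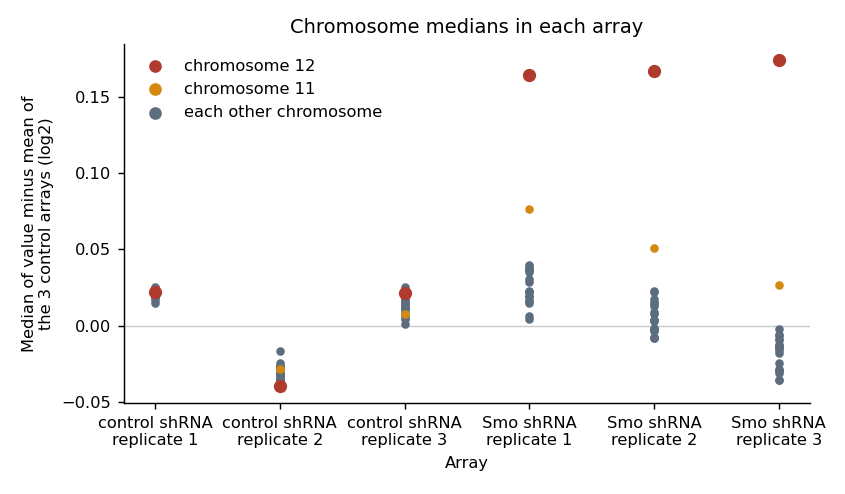
For each of the 6 arrays, the median over the genes of a chromosome of the value minus the mean of the 3 control arrays, in log2 units, with each dot 1 chromosome. Chromosome 12 sits at 0.16 to 0.17 in the Smo shRNA arrays and at -0.04 to 0.02 in the controls. Chromosome 11 sits at 0.027 to 0.077 in the Smo shRNA arrays and at -0.028 to 0.023 in the controls.

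The size of the difference depended on the level of the gene. In the dimmest of 5 bins of mean level, from 6.59 to 7.78, 125 chromosome 12 genes had a median of 0.02, against 0.00 for other chromosomes, and 6 (4.8%) were called higher, against 3.08% elsewhere. The second bin, up to 8.59, had a median of 0.06 over 121 genes, with 25 (20.7%) called higher, against 7.14% elsewhere. In the third bin, up to 9.77, the median was 0.32 over 144 genes, and 94 (65.3%, against 23.4% elsewhere) were called higher and 8 lower. The fourth bin, up to 10.95, had the highest median, 0.43 over 111 genes, with 87 (78.4%) called higher and 9 lower. In the brightest bin, up to 14.36, the median was 0.35 over 72 genes, with 57 (79.2%) higher and 6 lower. Genes of other chromosomes had medians between -0.0042 and 0.04 in the same bins, and 34.0% and 33.9% of them were called higher in the fourth and brightest bins. Of these genes elsewhere, 20.4% were called lower in the third bin, 23.5% in the fourth and 30.1% in the brightest.

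The pattern held for single probe sets compared at like level. In 5 bins of level from dim to bright, chromosome 12 members had medians of 0.09, 0.20, 0.36, 0.42 and 0.30, and probe sets of the other chromosomes had 0.0046, 0.01, 0.02, 0.03 and 0.02. Taking the genes at or above the median gene level (9.20), 268 chromosome 12 genes had a median of 0.39, and 205 of them (76.5%) were called higher and 21 lower. The 8141 genes of other chromosomes at that level had a median of 0.03, and 32.8% were called higher and 2092 genes lower. On chromosome 11 the 696 genes at that level had a median of 0.12, with 48.1% called higher and 116 genes lower. Below the median gene level, the 305 chromosome 12 genes had a median of 0.05, with 64 (21.0%, against 7.89% elsewhere) called higher and 6 lower. Elsewhere 800 of 8059 genes below that level were called lower.

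**Figure D3:**
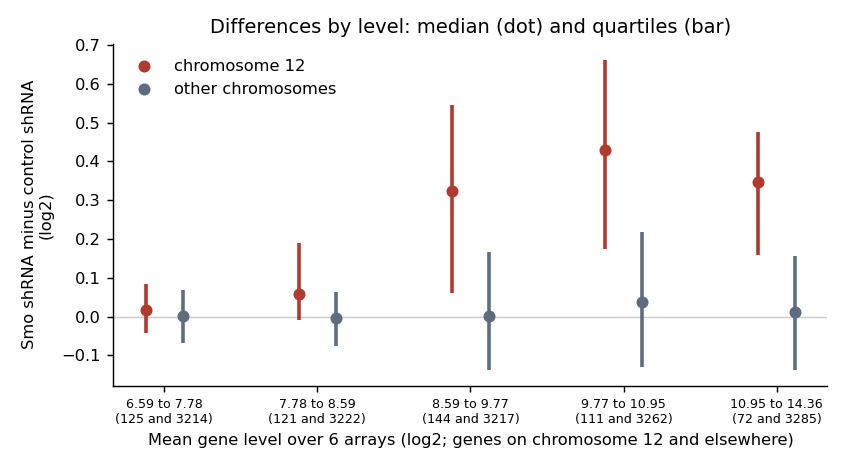
Median (dot) and quartiles (bar) of the gene difference in log2 units for chromosome 12 and for all other chromosomes, in 5 bins of mean gene level over the 6 arrays, with the number of genes in each. The chromosome 12 median is 0.02 in the dimmest bin and 0.32 to 0.43 in the 3 brightest, while the medians of the other chromosomes stay between -0.0042 and 0.04.

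Along the gene order the shift was not confined to a segment. Tested genes were ordered by start and divided into 10 blocks of 57 or 58 genes, and the block medians from the first to the last were 0.17, 0.13, 0.24, 0.32, 0.11, 0.15, 0.28, 0.06, 0.12 and 0.09. All 10 lay above the median of the other chromosomes. The same held for chromosome 11, whose lowest block median was 0.03. The fourth block, from Nkx2-1 to Gpr135, had 34 genes called higher and 1 lower. The eighth block, from Eml5 to Tcl1b1, had 18 higher and 7 lower. The median gene level was 8.58 in the eighth block, 8.36 in the tenth, which had the lowest, and 9.50 in the first, which had the highest. Among genes at or above the median gene level, the same blocks had medians of 0.45, 0.30, 0.43, 0.49, 0.34, 0.33, 0.39, 0.39, 0.58 and 0.30, and the eighth block was not the lowest of these.

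A running window of 25 genes gave 549 medians between -0.0088 and 0.44, with 98.9% above 0 and 74.0% above 0.1. The 15744 windows of the other chromosomes ran from -0.21 to 0.27, with 55.5% above 0 and 2.73% above 0.1. The highest of them lay on chromosome 11, where 84.3% of windows were above 0. Of the chromosome 12 windows, 18.6% were higher than that window. Successive windows share most of their genes, so windows are not separate observations and their shares are descriptions. The highest chromosome 12 median was shared by 4 overlapping windows, with 16 or 17 genes called higher and none lower in each. The first of them, ranks 2 to 26, began at Rab10os (0.05, adjusted p = 0.673) and ended at Ldah, a lipid droplet hydrolase (0.50). The lowest median was shared by 2 overlapping windows, and the first, ranks 439 to 463, began at Serpina10 (0.00, adjusted p = 0.992) and ended at Tcl1 (-0.01, adjusted p = 0.960). It spans the serpin and Tcl1 clusters and held 3 genes called higher (Dicer1, Snhg10 and Glrx5) and 2 called lower (Serpina6 and Serpina3g). The correlation of a gene's difference with that of the next gene was 0.10 over chromosome 12 and 0.0011 to 0.23 over the other chromosomes; neighbouring genes share the arrays, and this is a description only.

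**Figure D4:**
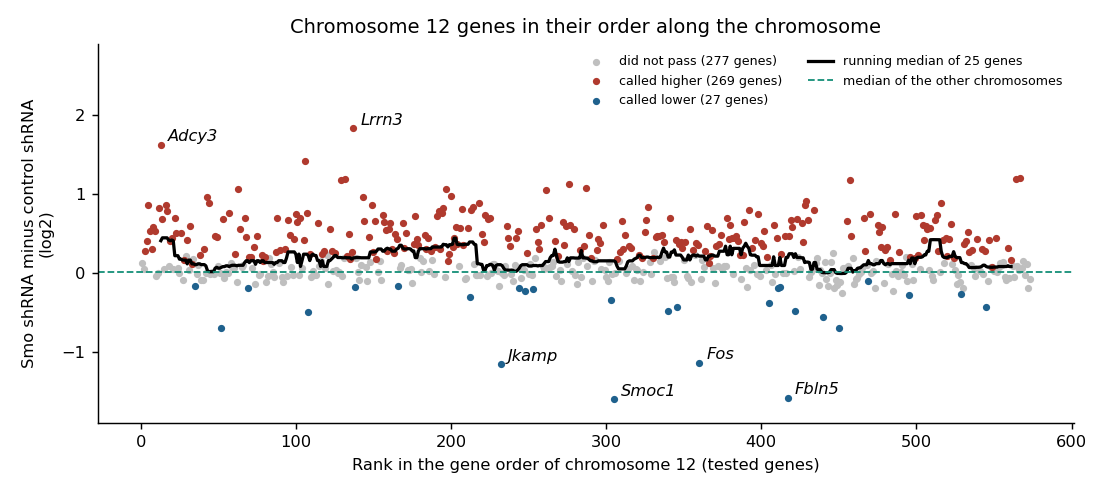
Difference of each tested chromosome 12 gene (log2, Smo shRNA less control shRNA) against its rank in the gene order, coloured by the limma call, with the running median of 25 genes as a line and the median of the other chromosomes dashed. The running median stays between -0.0088 and 0.44, and the 269 genes called higher lie along the whole order, among 27 called lower.

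The gene with the largest rise was Lrrn3, which encodes a neuronal leucine-rich repeat membrane protein. It read 7.30, 6.67 and 7.40 in the control arrays and 8.87, 9.07 and 8.93 in the Smo shRNA arrays, a difference of 1.83 (SE 0.15, adjusted p = 2.98e-07, 3.56-fold), from 4 probe sets. The 3 Smo shRNA values lay well above the controls, of which replicate 2 was the lowest. Adcy3, an adenylyl cyclase that makes cyclic AMP, read 8.12, 7.86 and 8.16 against 9.56, 9.74 and 9.70, a difference of 1.62 (SE 0.08, adjusted p = 5.35e-09, 3.08-fold). All 26 of its probe sets were higher and 25 were called. Dus4l, a transfer RNA dihydrouridine synthase, read 7.53, 7.48 and 7.73 against 9.03, 8.86 and 9.10, a 2.67-fold rise with all 12 probe sets called. None of these 3 genes had overlapping groups.

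Etv1 was among the brighter genes that rose over 2-fold. It encodes an ETS family transcription factor, and its start region is printed above. It read 10.41, 10.32 and 10.50 in the controls and 11.54, 11.59 and 11.65 in the Smo shRNA arrays, a difference of 1.18 (SE 0.05, adjusted p = 1.09e-09), and all 19 probe sets were called higher. Ncapg2, a subunit of the condensin II complex that folds chromosomes for division, read 9.53, 9.48 and 9.68 against 10.73, 10.83 and 10.68, a difference of 1.18 (SE 0.06, adjusted p = 6.23e-09), and all 35 probe sets were called higher. In both genes every Smo shRNA array lay far above every control array. Cdca7l, a nuclear protein that interacts with Myc, rose by 1.20, Ifrd1 by 1.18, the small nucleolar RNA host gene Snhg10 by 1.17, Gphn, the gephyrin scaffold protein, by 1.13 and Rdh11, a retinol dehydrogenase, by 1.08.

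A pair of matrix genes fell most. Smoc1, a secreted calcium-binding matrix protein, read 12.40, 12.30 and 12.32 in the controls and 10.70, 10.70 and 10.81 in the Smo shRNA arrays, a difference of -1.60 (SE 0.04, adjusted p = 1.45e-11, 3.03-fold lower), and all 15 probe sets were called lower. Fbln5, the elastic fibre protein fibulin-5, read 11.09, 10.87 and 11.01 against 9.34, 9.46 and 9.43, a difference of -1.58 (SE 0.06, adjusted p = 4.46e-10). Of its 18 probe sets 14 were called lower and none higher. Jkamp, a membrane protein of the endoplasmic reticulum that binds the kinase JNK, read 10.90, 10.67 and 10.84 against 9.58, 9.65 and 9.71, a difference of -1.16 (SE 0.06, adjusted p = 8.51e-09). In each of these 3 genes the groups lay far apart and the spread inside a group was small beside the difference.

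Fos, the immediate early AP-1 transcription factor, read 9.83, 9.65 and 10.10 in the controls and 8.90, 8.49 and 8.76 in the Smo shRNA arrays, a difference of -1.14 (SE 0.11, adjusted p = 2.40e-06, 2.21-fold lower). Its arrays spread more than those of the other 3 genes that fell over 2-fold, and the groups did not overlap. The pseudogene model Gm9202 (-0.70, adjusted p = 4.57e-07, 3 of 4 probe sets called lower) came next in size; it is outside the naming rule, which passes over gene models, and its probe sets may read near copies. Smaller falls passed for Serpina3g (-0.69), Serpina6 (-0.56), Hbp1, an HMG-box repressor (-0.50), Rin3 (-0.49), Aldh6a1, a mitochondrial dehydrogenase of valine breakdown (-0.49) and Pacs2 (-0.44). Serpina6 rested on 3 probe sets near the level threshold, with a mean of 6.95 in the controls and 6.39 in Smo shRNA, so only the control mean lay above the filter (6.56), and its call is given as a description. Without control replicate 1 its difference was -0.24 (adjusted p = 0.0644) and without control replicate 2 -0.29 (adjusted p = 0.126), and it also did not pass without Smo shRNA replicate 2 (-0.51, adjusted p = 0.112) or 3 (-0.37, adjusted p = 0.116).

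**Figure D5:**
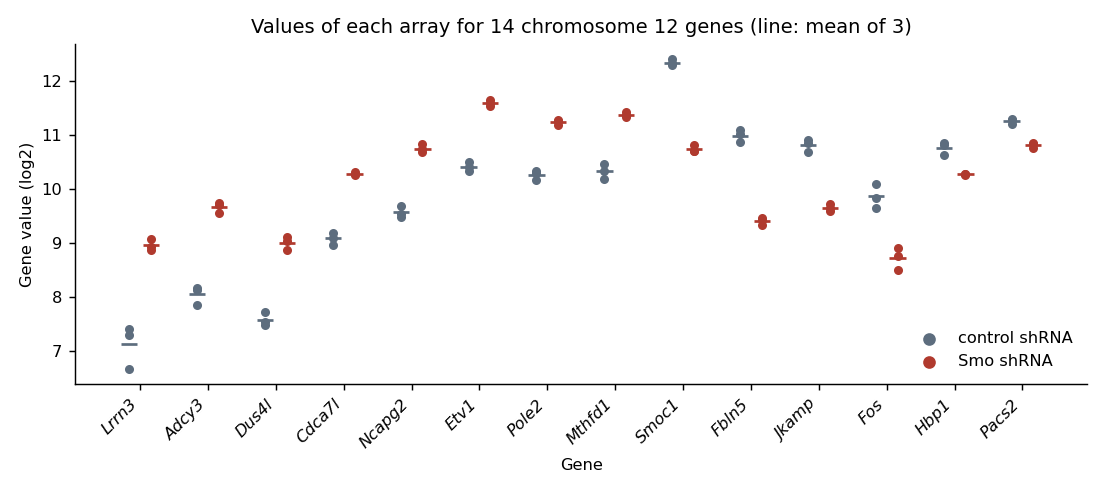
Value of each array (dots) and mean of 3 (line) in log2 units for 14 chromosome 12 genes, 8 that were higher and 6 that were lower in Smo shRNA. The groups overlap in none of the 14, with Lrrn3 rising by 1.83 and Smoc1 falling by 1.60.

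The counts of the role lists are to be read against 3 shares called higher: 21.2% of all genes tested, 46.9% of chromosome 12 genes and 76.5% of chromosome 12 genes at or above the median gene level. Nothing particular to a list is called from them. Genes of DNA replication, repair and cell division made up the list with the highest median, 0.73. The median was 0.16 over chromosome 12 genes, 0.39 over those at or above the median gene level and 0.01 over all genes tested. Of 18 listed genes 15 were tested, and 14 (93.3%) were higher, none was lower and 1 did not pass. The share called higher was 21.2% over all genes tested and 46.9% over chromosome 12 genes. Pole2, a subunit of the leading-strand DNA polymerase, read 10.29, 10.16 and 10.33 in the controls and 11.26, 11.17 and 11.28 in the Smo shRNA arrays, a difference of 0.98 (SE 0.05, adjusted p = 7.44e-09). The Smo shRNA arrays of Pole2 lay close to each other and far above the controls. The kinase Vrk1 rose by 0.74 with 18 of 21 probe sets called, and Cdca7l and Ncapg2 are given above. Mlh3, a mismatch repair protein, differed by -0.12 (adjusted p = 0.301) with overlapping groups. Leaving out any 1 array left 10 to 13 genes of this list called higher.

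Of 21 tested genes of protein making, folding and turnover, 19 (90.5%) were higher, 1 was lower and 1 did not pass, with a median of 0.47. The share called higher was 21.2% over all genes tested and 46.9% over chromosome 12 genes. Wars, the tryptophan transfer RNA ligase, rose by 0.75 (SE 0.04, adjusted p = 1.51e-08), the initiation factor Eif5 by 0.73, Eif2b2 by 0.56 and the ubiquitin ligase Ubr7 by 0.91. Dnajb9, a chaperone of the endoplasmic reticulum, fell by 0.17, a call that did not pass in 5 of the 6 fits with 1 array left out (differences of -0.20 to -0.14, adjusted p up to 0.191). Hspa2, a heat shock protein best known from the testis, differed by 0.09 (adjusted p = 0.379).

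Among 15 tested RNA processing genes, 11 (73.3%, against 46.9% of chromosome 12 genes) were higher, 2 were lower and 2 did not pass. Their median was 0.41, and the share higher is close to the 76.5% of all brighter chromosome 12 genes. Dicer1, the enzyme that cuts microRNA precursors, read 10.01, 10.02 and 10.12 against 10.68, 10.72 and 10.73, a difference of 0.66 (SE 0.05, adjusted p = 1.75e-07), with 43 of 49 probe sets called higher. The RNA helicase Ddx1 rose by 0.47, the translational repressor Pum2 by 0.59 and the poly(A)-binding protein Zc3h14 by 0.53. The splicing factor Srsf5 fell by 0.34 and the poly(A) polymerase Papola by 0.10. Srsf5 lost its call without control replicate 2 or 3 or Smo shRNA replicate 1 or 2 (-0.32 to -0.24). Papola lost it in 5 of the 6 fits with 1 array left out, and its difference was -0.06 without control replicate 3. Zfp36l1 (0.15, adjusted p = 0.136) and Ddx24 (0.13, adjusted p = 0.0938) did not pass.

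Of 24 tested genes of mitochondria and metabolism, 16 (66.7%, against 46.9% of chromosome 12 genes) were higher, 1 was lower and 7 did not pass, with a median of 0.39. Mthfd1, an enzyme of one-carbon folate metabolism, read 10.33, 10.18 and 10.46 in the controls and 11.42, 11.37 and 11.33 in the Smo shRNA arrays, a difference of 1.05 (SE 0.06, adjusted p = 1.68e-08), and all 31 probe sets were called higher. The groups did not overlap. Acot2, a mitochondrial acyl-CoA thioesterase, rose by 0.84, Dld, the lipoamide dehydrogenase of several mitochondrial complexes, by 0.65 and Sptlc2, a subunit of the first enzyme of sphingolipid synthesis, by 0.44. Aldh6a1 was the member that fell. The creatine kinase Ckb (0.01, adjusted p = 0.925) and the carrier Slc25a29 (-0.01, adjusted p = 0.935) did not pass.

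Genes of the cytoskeleton, motors and vesicle transport had a median of 0.28 over 21 tested, with 13 (61.9%, against 46.9% of chromosome 12 genes) higher, 2 lower and 6 that did not pass. Nin, the centrosome protein ninein, rose by 0.83 (SE 0.06, adjusted p = 1.43e-07), with 41 of 51 probe sets called higher. The endocytic scaffold Itsn2 rose by 0.79, the Golgi complex subunit Cog5 by 0.75 and the kinesin light chain Klc1 by 0.45. Pacs2, a sorting protein between endoplasmic reticulum and mitochondria, fell by 0.44, and Atl1, the endoplasmic reticulum GTPase atlastin, by 0.31. The call of Atl1 was lost without Smo shRNA replicate 1 (-0.26, adjusted p = 0.0514). Kif26a (-0.03, adjusted p = 0.840) and Rab15 (-0.11, adjusted p = 0.454) had overlapping groups.

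Of 29 tested signalling genes, 15 (51.7%, near the 46.9% of chromosome 12 genes) were higher, 2 were lower and 12 did not pass, with a median of 0.11. Besides Adcy3, the kinase Prkd1 read 7.67, 7.57 and 7.58 in the controls and 8.51, 8.66 and 8.53 in the Smo shRNA arrays, a difference of 0.96 (SE 0.07, adjusted p = 1.63e-07). Those groups did not overlap. Sos2, an exchange factor for Ras, rose by 0.81 and the kinase Map4k5 by 0.57. Rhoj, a small GTPase, fell by 0.20 and Nfkbia, the inhibitor of NF-kappaB, by 0.16. Nfkbia lost its call without control replicate 1 or 3 or Smo shRNA replicate 1 or 2 (-0.17 to -0.11), and its difference was -0.11 without control replicate 3. Rhoj did not pass when gene values were means of probe sets (-0.11, adjusted p = 0.108). The Notch ligand Jag2 (0.02, adjusted p = 0.844) and the thyrotropin receptor Tshr (0.03, adjusted p = 0.865) had overlapping groups.

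Of 30 tested transcription and chromatin factors, 15 (50%, near the 46.9% of chromosome 12 genes) were higher, 2 were lower and 13 did not pass, with a median of 0.16. The REST corepressor Rcor1 read 11.31, 11.28 and 11.32 against 11.88, 11.88 and 11.92, a difference of 0.59 (SE 0.04, adjusted p = 2.01e-08). The 3 arrays of each group lay close together. The nuclear receptor coactivator Ncoa1 rose by 0.86 and Mta1, a subunit of the NuRD complex, by 0.42. Fos and the forkhead factor Foxn3 (-0.39) fell. Mycn (-0.01, adjusted p = 0.961) and Egln3, a prolyl hydroxylase that acts on hypoxia-inducible factors (-0.09, adjusted p = 0.528), did not pass.

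The extracellular matrix, adhesion and secreted protein list had a median of 0.0015 over 17 tested genes. Of these, 4 (23.5%) were higher, 3 were lower and 10 did not pass. The share higher was near the 21.2% of all genes tested and below the 46.9% of chromosome 12 genes. Lgmn, the lysosomal protease legumain, read 11.34, 11.24 and 11.29 in the controls and 12.01, 11.95 and 11.98 in the Smo shRNA arrays, a difference of 0.69 (SE 0.04, adjusted p = 1.06e-08), and all 17 probe sets were called higher. Lamb1, a laminin chain, rose by 0.74, Pxdn, a peroxidase that crosslinks collagen IV, by 0.31 and the actin crosslinker Actn1 by 0.28. Smoc1, Fbln5 and Ltbp2, a latent TGF-beta binding protein family member (-0.43), fell. Differences in this list ran from -1.60 to 0.74. Apob (0.00, adjusted p = 0.992) and Nrcam (0.01, adjusted p = 0.973) did not pass.

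The imprinted Dlk1-Dio3 domain and the serpin cluster lie late in the gene order. In the imprinted Dlk1-Dio3 domain, all 6 listed genes were tested, 1 (16.7%) was higher, 1 was lower and 4 did not pass. The share called higher was 21.2% over all genes tested and 46.9% over chromosome 12 genes. Dlk1, a paternally expressed membrane ligand, read 8.49, 8.71 and 8.52 in the controls and 8.89, 8.84 and 8.79 in the Smo shRNA arrays, a difference of 0.27 (SE 0.07, adjusted p = 0.00967), but it did not pass without control replicate 3 (0.23, adjusted p = 0.117) or Smo shRNA replicate 1 (0.18, adjusted p = 0.0650). With a filter at the 75th percentile of level its difference was 0.11 (adjusted p = 0.268), and as a mean of probe sets it was 0.46. Dio3, which inactivates thyroid hormone, read 8.55, 8.45 and 8.44 against 8.15, 8.24 and 8.19, a difference of -0.28 (SE 0.07, adjusted p = 0.00366). Its 6 probe sets did not agree: 2 were called lower and 1 higher, with differences from -0.62 to 0.44. Meg3 (0.02), Rian (-0.03) and Mirg (0.20), the maternally expressed noncoding RNAs, and Rtl1 (0.10) had overlapping groups.

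Of 8 tested genes on the serpin and interferon-inducible list, none was higher, 1 was lower and 7 did not pass, with a median of -0.11. Of all chromosome 12 genes, 46.9% were called higher and 4.71% lower. The list leaves out some serpin genes of the cluster, among them Serpina6, whose call is described above. Serpina3g, an intracellular inhibitor of cathepsins, had a level of 8.21 ± 0.19 (SD, n = 3) in the controls and 7.52 ± 0.04 (SD, n = 3) in the Smo shRNA arrays. The groups did not overlap, with a difference of -0.69 (SE 0.09, adjusted p = 3.28e-05). Of its 9 probe sets 5 were called lower. With a filter at the 75th percentile of level its difference was -0.24. Serpina3n (0.06, adjusted p = 0.710) did not pass. Serpina3 genes are near copies of each other and their probe sets can cross-hybridize, so these values are uncertain.

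By biotype, the 513 protein-coding genes had a median of 0.19, with 262 higher and 25 lower. The 37 long noncoding RNA genes had a median of 0.04, with 4 higher and none lower. Of all chromosome 12 genes, 46.9% were called higher and 4.71% lower. On the other chromosomes, protein-coding genes had a median of 0.0064 and long noncoding RNA genes -0.0085. Biotypes were not matched for level, on which the size of the difference depended. Over all the role lists together 186 genes had a median of 0.25, and the 387 genes in no list had 0.12. Without the replication list the median over the remaining 558 genes was 0.15. The genes nearest the chromosome median were Mgat2, a Golgi glycosyltransferase (0.16, adjusted p = 0.0350), F730043M19Rik (0.16, adjusted p = 0.0946) and Bcl11b (0.16, adjusted p = 0.288). Mgat2 kept its call in 1 of the 6 fits with 1 array left out (0.0999 to 0.19), and its difference was 0.0999 without control replicate 2.

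Neighbours read in opposite directions with starts at most 1000 bases apart formed 31 pairs of tested genes. Both genes were higher in 15 pairs, 1 was higher and the other did not pass in 12, 1 was higher and the other lower in 2, 1 was lower and the other did not pass in 1, and neither passed in 1. Of the 62 genes in pairs, 44 (71%) were higher, against 46.9% of chromosome 12 genes and 76.5% of those at or above the median gene level. The pairs named here were chosen after their values were seen. Gen1, a resolvase of recombination junctions, rose by 0.96 and Smc6, a subunit of the SMC5/6 complex, by 0.88, with starts 79 bases apart. Across the printed stretches, 1110002L01Rik rose by 0.86 and Asxl2, a Polycomb-associated protein, by 0.53. Alkbh1, a nucleic acid demethylase, rose by 0.46 and Slirp, a mitochondrial RNA-binding protein, by 0.40. Moap1, a modulator of apoptosis, rose by 0.39 and Tmem251 by 0.86. Jkamp fell by 1.16 while its partner L3hypdh differed by -0.17 (adjusted p = 0.0638). Aldh6a1 fell by 0.49 while Lin52, a subunit of the DREAM complex, rose by 0.69. In the other pair of opposite calls, Trmt5 rose by 0.53 and Slc38a6 fell by 0.20, but the array annotation gives Slc38a6 114 kept probe sets, far more than the median gene, and its value is uncertain.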

How the data were processed

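The deposited table holds log2 values of exon probe sets for 6 arrays, as the authors made them. The log2 scale was inferred from their range, 0 to 15.14. How probes were summarised and normalized, and the build of the array annotation: not given in the sources used here. Rows at 0 in all arrays (20744) had no single gene symbol.

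In the platform annotation supplied with the series, 318760 probe sets had 1 symbol, 6684 several and 931387 none. Of 22296 symbols, 18006 were current in the RefSeq table of assembly GRCm38.p6, 3993 were updated and 297 kept. That table gave chromosomes and gene order, and no coordinate from it is printed; those beside the sequences, and distances between starts, are from the RefSeq promoter table of the same build.

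Gene values came from Tukey median polish over the kept probe sets of each gene with at least 3, and were compared with limma 3.58.1 (lmFit, eBayes with trend, no replicate block, two-sided, Benjamini-Hochberg over all genes). The code was tested on simulated data. SE is the moderated standard error. The number of arrays limits the precision. The members, lists and alternatives were chosen with earlier results of these data known, so list counts are descriptions.

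Named genes were the 10 largest calls in each direction without overlap (gene models such as Gm, Rik and LOC names, pseudogenes and small RNA genes passed over), up to 4 members of each list with the smallest adjusted p in its main direction, up to 2 in the other and up to 2 that did not pass, all imprinted genes, the 3 nearest the median, and window and threshold edges. Ltbp2, Glrx5, Gm9202 and the gene pairs were added after their values were seen.

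The alternatives were level filters, probe set minimum, summary by means, eBayes settings, quantile normalization, centring, current symbols, window widths, a replicate block and leaving out each array. The labels state no pairing of arrays by replicate number, and none was used in the main fit. Deviations of same-numbered arrays correlated at 0.08, 0.10 and 0.39, and those of arrays with different numbers at -0.37 to 0.31. With so few arrays these values cannot show whether arrays were paired.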

Additional observations from a re-analysis of the deposited data

How the results depend on the processing

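The median of chromosome 12 genes stayed above that of the other chromosomes in every setting run. It was 0.11 with no filter on dim probe sets, 0.25 with a filter at the 75th percentile of level, 0.21 with at least 5 probe sets a gene, and, in alternatives chosen after seeing the data, 0.19 over protein-coding genes and 0.39 over genes at or above the median gene level. Its excess over the other chromosomes was 0.10, 0.25 and 0.20 in the first 3 of these. The median of probe sets was 0.20 with no filter and 0.33 at the 75th percentile. The lowest block median was 0.15 at the 75th percentile, and all 10 blocks stayed above the other chromosomes without any 1 array. The lowest window median was -0.095 with 15 genes and 0.041 with 51. The gap between the lowest Smo shRNA and the highest control array was 0.092 with no filter, 0.22 at the 75th percentile, 0.092 with arrays centred on genes outside chromosome 12, and 0.095 to 0.14 with 1 array left out. Leaving out 1 array gave 226 to 236 genes called higher, 19 to 23 lower, 3532 to 3950 called probe sets and medians of 0.14 to 0.16. With the replicate number as a block, 310 genes were called, 279 higher and 31 lower, and the median was 0.16. Of 59 named genes called, 50 kept the call in every setting that tested them, and none of the 59 changed sign. No detection calls were used, and why the size of the difference depended on level was not tested.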

Other observations

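The 2506 single-symbol probe sets of chromosome 12 below the level threshold had a median difference of 0.05, and 56.9% of them were above 0.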
